A study of Mus musculus with 6 samples.

Results

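Integrins are cell surface receptors made of 1 alpha and 1 beta subunit, and laminins are extracellular matrix proteins made of 1 alpha, 1 beta and 1 gamma chain. The genes described here are all those in the annotation whose symbols name an integrin alpha subunit (Itga with digits or a single letter), an integrin beta subunit (Itgb with 1 digit) or a laminin chain (Lama, Lamb or Lamc with 1 digit). The rule gave 36 of the 32285 genes in the matrices, of which 25 encode integrin subunits and 11 encode laminin chains. The rule used the symbols and no measured value. Itga2b does not match the rule and was left out.

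Dorsal skin cells were profiled by single-cell RNA-seq after hair depilation, in which shaved dorsal skin is waxed to bring resting hair follicles (HFs) into growth. The mice were wildtype FVB males aged 55 to 57 days after birth, and all of them had been depilated. Skin was taken at 0, 4 and 16 h and at 2, 4 and 6 d. At each time the cells of 2 mice, prepared apart, went into 1 library at equal numbers. The counts do not tell these mice apart, and a comparison of 2 time points is 1 library against 1. The labels name enzymatic digestion. For sorted cells, the study's methods give trypsin alone for resting (telogen) skin and collagenase with hyaluronidase before trypsin for growing (anagen) skin, and which was used for each library is not given in the sources used here, so digestion and time cannot be told apart.

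In the epidermis and the HF, basal keratinocytes stand on a basement membrane. The integrin pair of the Itga6 and Itgb4 products forms hemidesmosomes, and the pair of the Itga3 and Itgb1 products forms focal contacts. Both bind laminin of the epidermal basement membrane, whose chains include the products of Lama3 and Lamb3. Cells that leave the basement membrane and differentiate are known to lose most integrins. Leukocytes carry other integrins, among them the Itgae and Itgb7 pair, which binds E-cadherin on keratinocytes.

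Before filtering, library totals lay between 72634390 and 112370376 UMIs, and after it 50502 cells were analysed, between 6520 and 11032 in a library. Of the barcode sequences, 428 occurred in 2 libraries and 2 in 3 or more. Cells were clustered without the 36 genes, and clusters were given the name of the marker list they were most like. IFE.B and IFE.SB are cells like the basal and suprabasal interfollicular epidermis, uHF.B and uHF.SB cells like the basal and suprabasal upper HF, OB1, OB2 and OB3 cells like 3 groups of the outer bulge, which holds HF stem cells, and IB cells like the inner bulge. IRS2 and IRS3 are cells like the inner root sheath lineage, SG the sebaceous gland, and DP and fibroblast the dermal papilla and dermis. A cluster led by Col14a1, Tagln and Ptch1 and found mostly at 4 d matched no list and is called the Col14a1 cluster, and HF clusters 1 and 2 are likewise called by number. The IRS2 cluster had markers of both IRS1 and IRS2 among its leading genes, and some IFE.B and uHF.B cells sat in clusters led by genes of dividing cells.

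Levels are given as CPM, the UMIs of a gene per 1000000 UMIs summed over all cells of a class in a library, for libraries with at least 20 cells of the class. Values in a row of 6 follow the time points in order, from 0 h to 6 d. Intervals are exact Poisson 95% intervals for levels and exact binomial 95% intervals for folds and shares, and cover counting error only, not the difference between mice. A CPM counts 3′ ends and cannot be compared between genes by length, so levels are compared within a gene only. GENCODE annotates another gene on the same strand that overlaps each of 3 members (Itga1, Itga6 and Lamb3), whose counts may be shared. In each, the overlap lay nearer the start of the member than its 3′ end.

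Of the 36 genes, 23 reached 50 CPM in the sum of at least 1 class. Among them, Itga6, Itga3, Itgb4 and Lamb3 had their highest sum in IFE.B, Itgb6 and Itgb8 in OB3, Lama3 in OB1 and Itgb5 in IRS3. Itgb1 and Itga2 were highest in the IB sum, of which the 4 h library held most cells (150, against 21 at 0 h, 96 at 16 h and 110 at 6 d), and their IB levels spread widely between libraries. Lama5 was highest in the Col14a1 cluster. Lama2, Lamb1, Lamb2, Lamc1 and Lamc3 were highest in DP and fibroblast cells. Itgae, Itgb7, Itgal and Itgav were highest in T cells, and Itgam and Itgax in Langerhans cells. The members thus had their highest levels in epithelial, stromal or leukocyte classes.

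**Figure D1:**
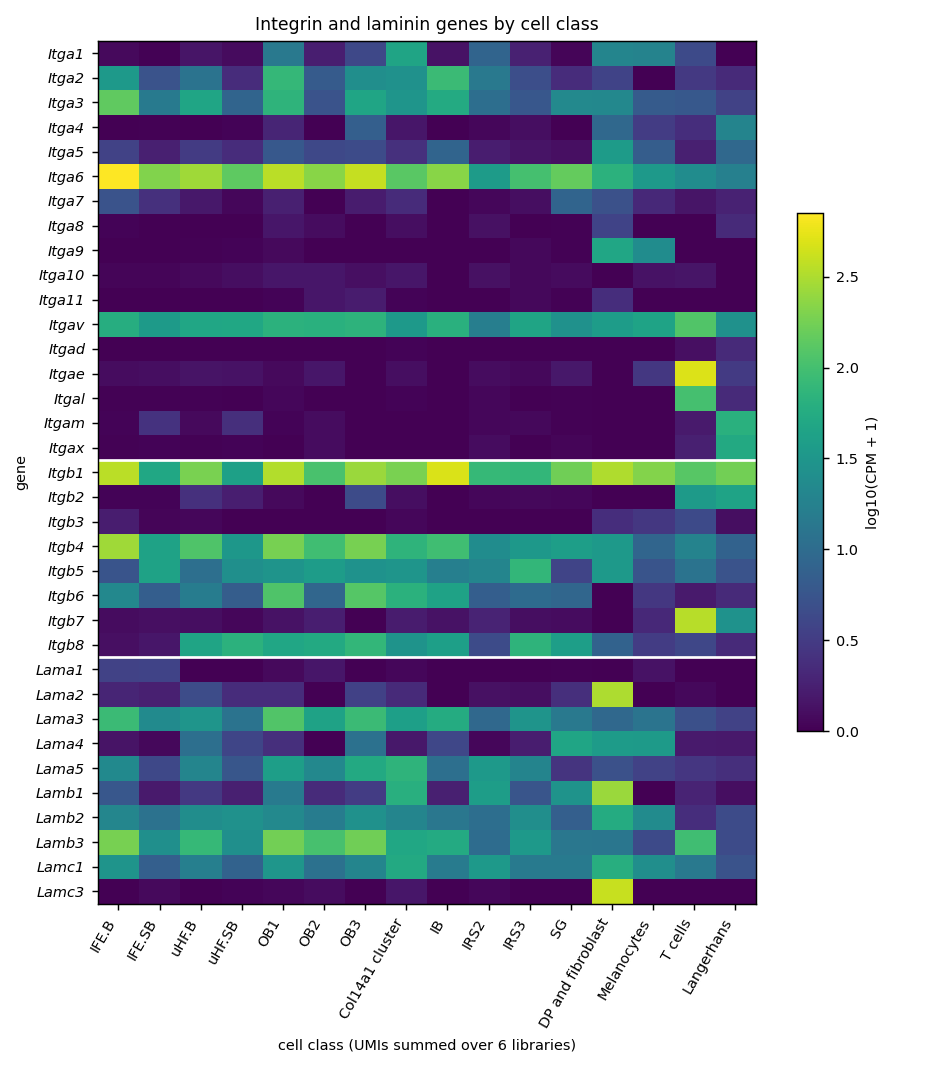
Level of 35 of the 36 genes (rows: integrin alpha subunits, integrin beta subunits and laminin chains, separated by white lines) in 16 cell classes (columns), as log10(CPM + 1) of the UMIs summed over the 6 libraries. Itga6, Itgb1, Itgb4 and Lamb3 are bright in the keratinocyte columns, Itgae and Itgb7 in T cells, and Lama2 and Lamc3 in DP and fibroblast cells.

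The clearest pattern over time was a high level of the basal integrins in the 4 h library. Itgb1 (ENSMUSG00000025809, chromosome 8 from 128685654 to 128733200 in mm10) encodes the beta subunit shared by most matrix-binding integrins. In OB1 its level was 187, 1002, 337, 180.3, 179.6 and 220.4 CPM, in uHF.B 152, 894, 171, 138, 138 and 152 CPM and in IFE.B 224, 852, 230.3, 236, 204 and 253 CPM. In all 3 classes the 4 h library stood far above the other 5. Against 0 h, the 4 h level was higher 5.36-fold (95% interval 4.74 to 6.07) in OB1, 5.89-fold (95% interval 5.22 to 6.66) in uHF.B and 3.81-fold (95% interval 3.71 to 3.92) in IFE.B. Itgb1 was at least 2-fold higher at 4 h in each of 10 keratinocyte classes measured at both times, between 3.17-fold (Col14a1 cluster) and 7.73-fold (OB3). In T cells, which were captured in the same libraries, Itgb1 was 138, 134, 117, 129, 132 and 98.1 CPM, and the 4 h library did not stand apart. In Langerhans cells it was 109, 190.1, 223, 173, 134 and 158 CPM, 1.74-fold (95% interval 1.12 to 2.81) the 0 h level at 4 h and 2.04-fold (95% interval 1.31 to 3.31) at 16 h, on 24 UMIs at 0 h. In melanocytes it was 2.13-fold (95% interval 1.09 to 4.54) the 0 h level at 4 h, on 11 UMIs at 0 h, and alike at 16 h.

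Itga6 (ENSMUSG00000027111, chromosome 2 from 71745616 to 71858416) encodes the alpha subunit of the hemidesmosome integrin. Its level in IFE.B was 457, 1299, 657, 580.1, 482 and 463 CPM, in uHF.B 318, 635, 280.5, 305, 225 and 208 CPM and in OB1 309.8, 534, 279.8, 424, 288 and 367 CPM. The 4 h library was the highest in each, 2.84-fold (95% interval 2.79 to 2.90) above 0 h in IFE.B, 2.00-fold (95% interval 1.80 to 2.21) in uHF.B and 1.72-fold (95% interval 1.55 to 1.92) in OB1. Of these, IFE.B passed 2-fold. In uHF.SB the pattern differed, with 358, 324, 176, 136, 108 and 94.9 CPM, so that the 0 h and 4 h libraries were alike and the 4 later ones lower.

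Its partner Itgb4 (ENSMUSG00000020758, chromosome 11 from 115974709 to 116008412) was at 178, 487, 286, 171, 241 and 197 CPM in IFE.B, 132, 268, 155, 79.9, 88.0 and 85.7 CPM in uHF.B and 148, 382, 225, 127, 122 and 142 CPM in OB1. The level at 4 h was 2.73-fold (95% interval 2.65 to 2.82), 2.04-fold (95% interval 1.74 to 2.38) and 2.58-fold (95% interval 2.22 to 2.996) that of 0 h, and the 16 h level lay between those of 0 h and 4 h in each. Itga3 (ENSMUSG00000001507, chromosome 11 from 95044474 to 95076801), the alpha partner of Itgb1 for laminin, was at 90.9, 252, 135, 99.4, 116 and 110.4 CPM in IFE.B, 57.8, 161, 44.3, 27.0, 36.3 and 41.1 CPM in uHF.B and 54.1, 129.6, 69.7, 48.0, 51.2 and 70.5 CPM in OB1. The 4 h level was 2.77-fold (95% interval 2.65 to 2.90), 2.79-fold (95% interval 2.24 to 3.50) and 2.40-fold (95% interval 1.87 to 3.10) that of 0 h. Over the 10 keratinocyte classes, Itgb4 was at least 2-fold higher at 4 h in 8 of 10, Itga3 in 6 of 9 and Itga6 in 5 of 10 in which it reached 20 CPM.

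**Figure D2:**
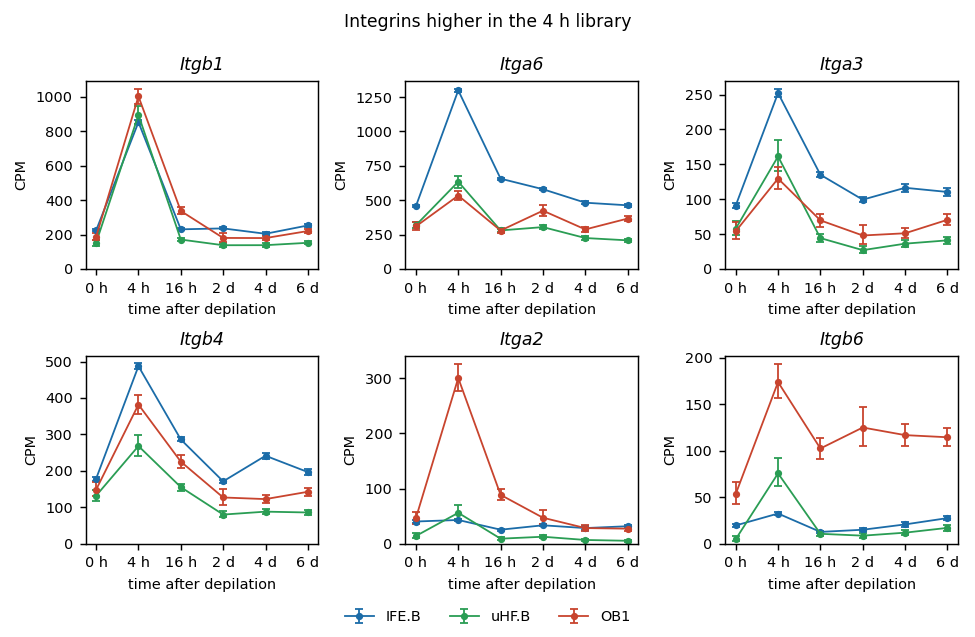
Level in CPM (vertical axes, starting at 0) of 6 integrin genes at the 6 time points in IFE.B (blue), uHF.B (green) and OB1 (red), 1 library per point, with exact Poisson 95% intervals as bars. The 4 h point is the highest of every line for Itgb1, Itga6, Itga3, Itgb4 and Itga2, and Itgb6 stays above 100 CPM in OB1 after 4 h.

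Itga2 (ENSMUSG00000015533, chromosome 13 from 114833081 to 114932100) encodes the alpha subunit of a collagen receptor, and its time pattern depended on the class. OB1 was at 46.4, 301, 88.6, 47.1, 28.4 and 27.3 CPM and uHF.B at 14.0, 56.0, 9.11, 12.6, 6.75 and 5.27 CPM, while IFE.B was at 40.3, 43.0, 25.4, 33.4, 28.3 and 31.7 CPM. The 4 h level was 6.48-fold (95% interval 5.08 to 8.37) that of 0 h in OB1 and 4.00-fold (95% interval 2.61 to 6.26) in uHF.B. In IFE.B the ratio was 1.07-fold (95% interval 0.986 to 1.16). In OB3 it was 24.1, 127, 18.3, 18.4, 12.9 and 9.87 CPM, again with the 4 h library alone above the rest. By 4 d and 6 d the OB1 level had come below that of 0 h.

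Itgb6 (ENSMUSG00000026971, chromosome 2 from 60598292 to 60722643) encodes the beta subunit of an epithelial receptor that activates latent TGF-beta. It was at 4.81, 75.7, 10.7, 8.64, 11.9 and 17.0 CPM in uHF.B, 53.4, 174, 102, 125, 117 and 115 CPM in OB1 and 19.6, 32.5, 12.7, 15.0, 20.8 and 27.6 CPM in IFE.B. In uHF.B the 4 h level was 15.7-fold (95% interval 8.43 to 32.5) that of 0 h, which rests on 11 UMIs at 0 h, and the later levels were between 8.64 and 17.0 CPM. In OB1 the 4 h level was 3.26-fold (95% interval 2.56 to 4.18) that of 0 h, and the 4 later libraries also lay above 0 h, the highest of them at 125 CPM. Its alpha partner Itgav (ENSMUSG00000027087, chromosome 2 from 83724397 to 83806916) was at 78.2, 61.9, 78.9, 68.9, 65.4 and 58.0 CPM in OB1, 46.8, 68.9, 53.6, 52.5, 45.2 and 33.8 CPM in uHF.B and 58.9, 41.6, 61.4, 65.5, 66.0 and 60.2 CPM in IFE.B, and passed 2-fold at 4 h in none of the 10 keratinocyte classes.

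The promoters of 22 of the 36 genes were in the RefSeq table used here (25 entries, GRCm38.p6). Those of Itgb1 and Itgb6, which were higher at 4 h, and of Lamb3, which was not, are printed as the 250 bases before the annotated start, in the direction of the gene. Capitals mark a CArG box, the motif of serum response factor, and the search covered both strands.
Itgb1 chr8:128685404-128685653, plus strand: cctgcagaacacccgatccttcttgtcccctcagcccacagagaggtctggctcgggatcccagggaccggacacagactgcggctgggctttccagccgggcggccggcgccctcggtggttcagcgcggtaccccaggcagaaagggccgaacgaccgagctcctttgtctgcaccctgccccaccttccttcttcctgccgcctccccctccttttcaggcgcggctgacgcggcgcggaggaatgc
Itgb6 chr2:60673694-60673943, minus strand: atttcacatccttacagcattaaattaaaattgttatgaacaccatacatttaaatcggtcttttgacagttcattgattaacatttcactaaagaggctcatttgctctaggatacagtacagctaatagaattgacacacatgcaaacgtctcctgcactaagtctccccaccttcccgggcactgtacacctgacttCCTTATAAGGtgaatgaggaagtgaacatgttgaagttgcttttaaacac
Lamb3 chr1:193301744-193301993, plus strand: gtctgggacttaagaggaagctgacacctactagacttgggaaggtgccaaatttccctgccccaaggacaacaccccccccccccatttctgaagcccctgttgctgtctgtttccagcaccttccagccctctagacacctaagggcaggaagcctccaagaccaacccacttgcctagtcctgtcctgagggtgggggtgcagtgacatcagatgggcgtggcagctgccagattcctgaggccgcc
A CArG box lay in 2 of the 25 entries, the one of Itgb6 shown and the one of Lama2, and in 1.47% of the 32851 promoters of the table. The AP-1 motif TGANTCA, which reads the same on both strands, lay in 1 of the 25 (Itgax) and in 6.75% of all promoters. A match of letters is a description, and whether a factor used it was not tested. Itgb6 has a second entry with another start and no CArG box.

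The keratinocyte laminin genes Lama3 and Lamb3 did not share 1 time pattern. Lama3 (ENSMUSG00000024421) was at 98.6, 286, 125, 73.4, 87.3 and 83.0 CPM in OB1, 34.6, 86.3, 29.5, 21.7, 24.4 and 25.1 CPM in uHF.B and 92.0, 78.9, 100.5, 69.2, 95.8 and 85.6 CPM in IFE.B. At 4 h it was 2.90-fold (95% interval 2.42 to 3.48) and 2.498-fold (95% interval 1.86 to 3.37) the 0 h level in OB1 and uHF.B, but 0.859-fold (95% interval 0.812 to 0.908) in IFE.B.

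Lamb3 (ENSMUSG00000026639, chromosome 1 from 193207699 to 193343878) had no high 4 h level. It was at 289, 217, 192, 114, 142 and 138 CPM in OB1, with 0 h the highest library, at 107, 99.95, 101, 77.7, 73.3 and 55.9 CPM in uHF.B and at 194, 163, 200, 151, 195 and 198 CPM in IFE.B. The 4 h level was 0.750-fold (95% interval 0.657 to 0.857), 0.932-fold (95% interval 0.749 to 1.16) and 0.841-fold (95% interval 0.809 to 0.874) that of 0 h in these classes, and over the 10 keratinocyte classes the ratio lay between 0.569 and 1.61. In OB1 at 2 d it was 0.395-fold (95% interval 0.321 to 0.482) the 0 h level, and at 6 d 0.475-fold (95% interval 0.422 to 0.537). Thus in OB1 at 4 h Lama3 was higher and Lamb3 lower than at 0 h, each beyond counting error.

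**Figure D3:**
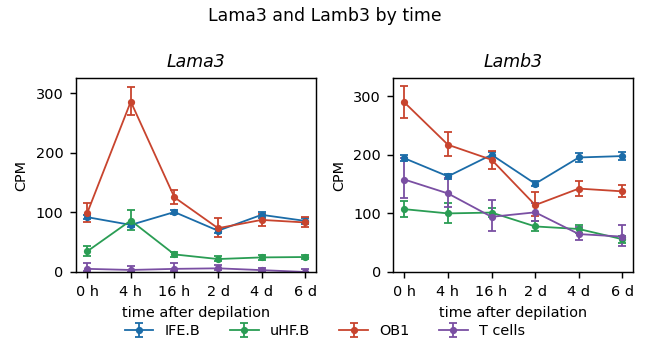
Level in CPM (vertical axes, starting at 0) of Lama3 and Lamb3 at the 6 time points in IFE.B (blue), uHF.B (green), OB1 (red) and T cells (purple), 1 library per point, with exact Poisson 95% intervals as bars. Lama3 peaks at 4 h in OB1 and uHF.B, Lamb3 in OB1 is highest at 0 h, and T cells lie near 0 for Lama3 but not for Lamb3.

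Of the 14 members with 20 CPM or more in OB1 at 0 h or 4 h, 7 were at least 2-fold higher at 4 h and 2 lower, where 21.5% and 17.2% of all such genes were. In uHF.B it was 8 higher and 1 lower of 14 (20.6% and 17.2% of all genes) and in IFE.B 5 higher and 1 lower of 13 (21.9% and 15.4%). The median log2 ratio of the members at 4 h was 1.02 in OB1, 1.17 in uHF.B and 0.454 in IFE.B, against 0.182, 0.162 and 0.231 over all genes. The members higher in IFE.B included Itgb1, Itga6, Itga3 and Itgb4, and those higher in OB1 included Itgb1, Itga2, Itga3, Itgb4, Itgb6 and Lama3. These also were higher in uHF.B, as was Lamc1, at 13.6, 38.6, 16.7, 10.8, 15.5 and 16.3 CPM. The members lower were Itgb5 and Itgb8 in OB1, Lama5 in uHF.B, at 21.0, 9.09, 12.5, 16.8, 24.6 and 22.8 CPM, and Lamb2 in IFE.B, at 23.5, 9.56, 20.6, 16.9, 25.6 and 25.1 CPM.

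At 16 h none of the members was at least 2-fold higher than at 0 h in OB1, uHF.B or IFE.B, where 16.6%, 16.3% and 4.66% of all genes were. In IFE.B no member passed 2-fold in either direction at 16 h, 2 d, 4 d or 6 d. In OB1 the members higher than at 0 h were 2 at 2 d (Itgb6 and Itgb8), 4 at 4 d (Itgb6, Lama5, Lamb1 and Lamc1) and 3 at 6 d (Itgb6, Lama5 and Lamc1), where 8.8%, 18.3% and 9.39% of all genes were. With TMM scaling the uHF.B count lower at 4 h was 3 and the OB1 count higher at 4 d was 2. In uHF.B none were higher at these times (5.25%, 10.9% and 6.04% of all genes).

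In the suprabasal classes and in OB2 and OB3 the counts at 4 h varied. In IFE.SB 5 of 9 measured members were at least 2-fold higher and 1 lower (19.4% and 10.1% of all genes), in uHF.SB 3 and 1 of 11 (22.5% and 14.4%, so a share close to that of all genes), in OB2 5 and 0 of 10 (25.8% and 15.4%) and in OB3 6 and 2 of 14 (22.0% and 22.1%). Itgb1 was among those higher in each of the 4 classes. In IFE.SB Itgb1 was at 25.4, 125, 29.4, 47.9, 53.3 and 27.0 CPM and Itgb4 at 23.3, 87.5, 48.4, 35.6, 65.1 and 20.7 CPM. Both were lowest at 0 h or 6 d, and higher than at 0 h by at least 2-fold also at 4 d. In OB2 Itgb1 was at 58.6, 399.5, 99.3, 47.3, 59.97 and 73.0 CPM. In OB3 Itgb1 was at 136, 1049, 232, 179, 170.3 and 191 CPM and Itgb6 at 48.3, 203, 133, 97.3, 139 and 128 CPM, and Itgb6 remained at least 2-fold above 0 h in each later library of OB3.

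In uHF.SB Lamb3 and Lama3 were lower late. Lamb3 was at 53.8, 41.9, 37.5, 28.5, 22.2 and 12.7 CPM and Lama3 at 23.0, 27.2, 17.0, 11.6, 7.99 and 7.998 CPM. At 4 d and at 6 d, 4 of 10 measured members were at least 2-fold lower than at 0 h, Lamb3, Lama3 and Itga6 among them, where 13.0% and 13.8% of all genes were. The uHF.SB class held 75 cells at 0 h and 859 at 4 d. The other suprabasal class, IFE.SB, did not share the lower Lamb3 level. There Lamb3 was at 16.6 CPM at 0 h, 34.1 CPM at 2 d (2.06-fold) and 48.7 CPM at 4 d (2.94-fold). Lama3 in IFE.SB was 1.76-fold the 0 h level at 4 d. At 6 d no measured member passed 2-fold in either direction in IFE.SB.

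In T cells 3 of 11 measured members were at least 2-fold higher at 4 h (20.7% of all genes) and 0 lower (6.69%). The 3 were Itga6, Itgb5 and Lamc1, on 6, 2 and 3 UMIs at 0 h. Itga6 was at 10.5, 26.1, 36.6, 27.4, 24.51 and 8.80 CPM there, highest at 16 h, against a lowest level of 457 CPM in IFE.B. In Langerhans cells 0 of 8 were higher at 4 h and 4 lower (20.7% and 14.7% of all genes), which were Itga4, Itga6, Itgb2 and Itgb7, from 42 cells at 0 h.

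**Figure D4:**
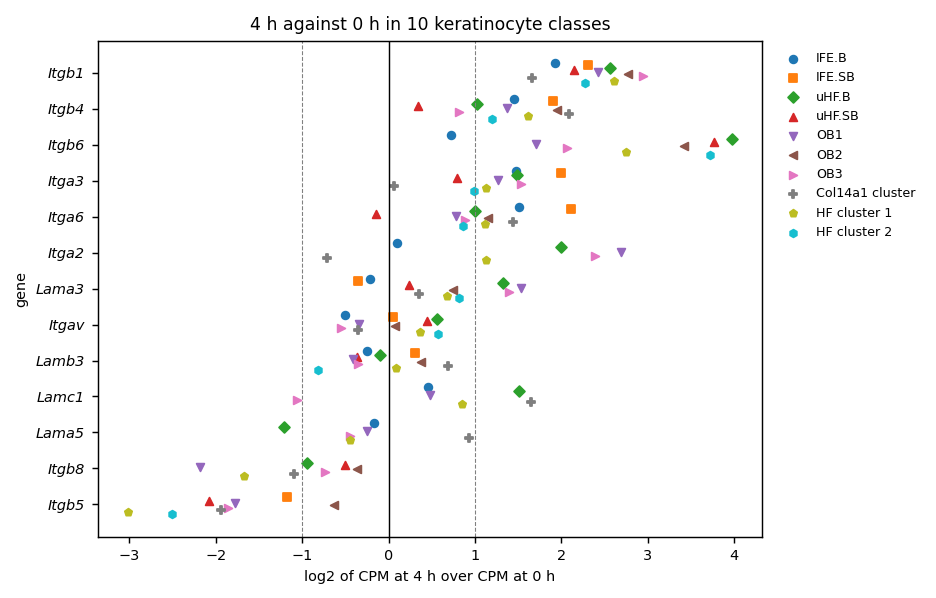
Log2 of the CPM at 4 h over the CPM at 0 h (horizontal axis) for 13 genes (rows) in 10 keratinocyte classes (symbols), where the gene had at least 20 CPM at either time. Dashed lines mark 2-fold. All symbols of Itgb1 lie right of the upper line, those of Lamb3 and Itgav lie between the lines, and most of Itgb5 lie left of the lower line.

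The high Itgb1 level at 4 h was also seen as a share of cells. With each cell thinned to 2000 UMIs, an Itgb1 UMI was found in 31.4% (95% interval 26.0 to 37.2) of OB1 cells at 0 h and in 77.9% (95% interval 73.7 to 81.7) at 4 h. For IFE.B the shares were 35.4% (95% interval 33.6 to 37.1) and 77.6% (95% interval 76.1 to 79.0), and for T cells 23.5% (95% interval 17.5 to 30.4) and 23.3% (95% interval 18.1 to 29.1). An Itga2 UMI was found in 11.1% (95% interval 7.65 to 15.3) of OB1 cells at 0 h and 34.0% (95% interval 29.5 to 38.6) at 4 h, and in 0% (95% interval 0 to 2.04) and 0.408% (95% interval 0.0103 to 2.25) of T cells. Unthinned, 62.1% of OB1 cells at 0 h and 91.4% at 4 h had an Itgb1 UMI, at median depths of 5569 and 4344 UMIs, and 29.0% and 25.1% of T cells at 2701.5 and 2222 UMIs. Cells under 2000 UMIs were left out, which were 0 of 280 and 45 of 475 OB1 cells and 35 of 214 and 146 of 391 T cells at 0 h and 4 h.

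Other members were lower at 4 h. Itgb5 (ENSMUSG00000022817, chromosome 16 from 33829665 to 33949338), a beta subunit that pairs with the Itgav product, was at 38.2, 11.1, 17.7, 31.7, 44.0 and 30.1 CPM in OB1, and the 4 h level was 0.291-fold (95% interval 0.172 to 0.478) that of 0 h. In IFE.SB, where the gene was higher than in IFE.B, it was at 44.4, 19.7, 54.2, 45.7, 51.5 and 41.9 CPM, with the lowest value again at 4 h. It reached 20 CPM in 8 of the 10 keratinocyte classes, and was at least 2-fold lower at 4 h in 7 of them. Itgb8 (ENSMUSG00000025321, chromosome 12 from 119158022 to 119238802), another beta partner of Itgav, was at 39.4, 8.70, 29.0, 97.0, 49.5 and 64.0 CPM in OB1 and 36.3, 18.9, 36.1, 54.5, 52.2 and 49.6 CPM in uHF.B. Its 4 h level was 0.221-fold (95% interval 0.123 to 0.378) that of 0 h in OB1, the lowest of the 6 libraries, and 2 d was the highest. Itgb8 reached 20 CPM in 7 of the 10 keratinocyte classes, and was at least 2-fold lower at 4 h in 3 of them.

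In OB1, members of the laminin made of the Lama5, Lamb1 and Lamc1 products had higher levels late. Lamb1 (ENSMUSG00000002900, chromosome 12 from 31265234 to 31329644) was at 1.91, 5.80, 5.36, 10.9, 27.5 and 16.6 CPM in OB1, from 3 UMIs at 0 h to 95 at 4 d. Lama5 (ENSMUSG00000015647, chromosome 2 from 180176373 to 180225859) was at 23.5, 19.8, 23.0, 28.1, 49.5 and 57.0 CPM, 2.10-fold (95% interval 1.47 to 3.09) the 0 h level at 4 d and 2.42-fold (95% interval 1.72 to 3.51) at 6 d. Lamc1 (ENSMUSG00000026478, chromosome 1 from 153218922 to 153332786) was at 15.9, 22.2, 24.3, 19.0, 39.9 and 38.2 CPM. In all 3 the 4 d and 6 d libraries were the highest pair. In IFE.B the same genes stayed within 2-fold of 0 h, with Lamb1 between 3.62 and 6.74 CPM. OB3 did not share the late rise. At 0 h, 4 d and 6 d, Lama5 was at 54.3, 70.1 and 55.2 CPM there and Lamc1 at 30.2, 14.3 and 16.8 CPM. Lamb1 had 0, 3 and 1 UMIs in these OB3 libraries.

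In the Col14a1 cluster, with 35, 42, 75, 151, 1499 and 329 cells, Lama5 was at 29.1, 55.3, 33.1, 29.1, 77.2 and 82.8 CPM, Lamb1 at 54, 52.1, 30.6, 27.9, 68.0 and 66.4 CPM and Lamc1 at 12.5, 39.0, 22.9, 33.3, 54.5 and 71.8 CPM. Itga1 (ENSMUSG00000042284, chromosome 13 from 114953096 to 115101964), the alpha subunit of a collagen and laminin receptor, was at 29.1, 0, 8.92, 4.16, 51.3 and 58.3 CPM there and at 10.8, 3.38, 6.31, 16.3, 18.8 and 18.4 CPM in OB1. Itgb6 was at 4.15, 19.5, 24.2, 12.5, 73.5 and 83.1 CPM in the cluster, so its 4 d and 6 d levels were far above those of the 4 earlier libraries. Over the same libraries the summed level of 6 smooth muscle markers, which include the leading gene Tagln and of which Rgs5 had no UMI, was between 2.38 and 12.5 CPM up to 2 d, 136 CPM at 4 d and 163 CPM at 6 d. Its part in the late levels was not tested.

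**Figure D5:**
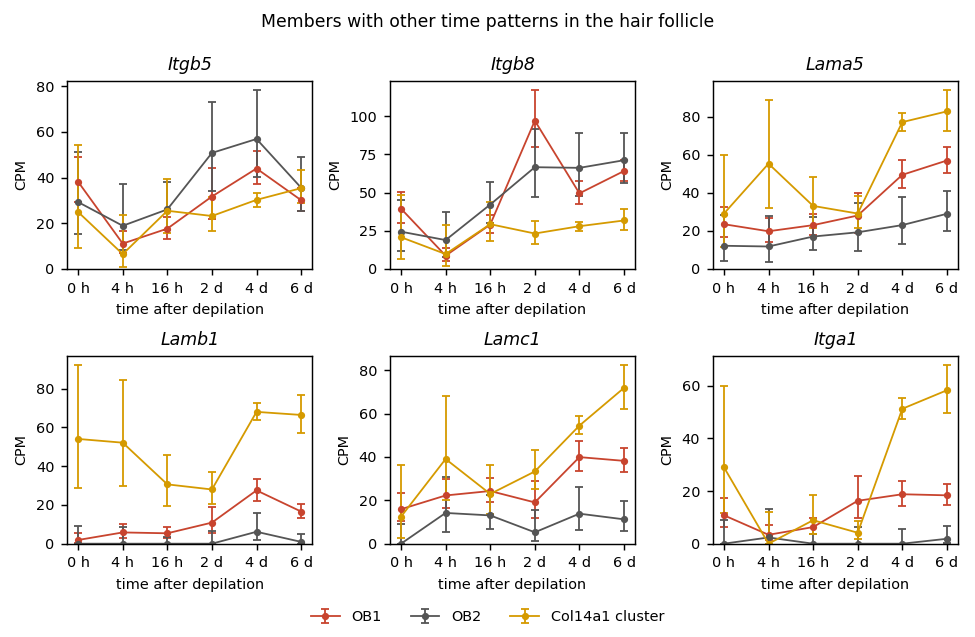
Level in CPM (vertical axes, starting at 0) of 6 genes at the 6 time points in OB1 (red), OB2 (grey) and the Col14a1 cluster (yellow), 1 library per point, with exact Poisson 95% intervals as bars. Itgb5 and Itgb8 are lowest at 4 h in OB1, while Lama5, Lamb1 and Lamc1 are highest at 4 d and 6 d in OB1 and the Col14a1 cluster.

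The time course was tested for each class over the 6 libraries by a spline fit in edgeR (quasi-likelihood). On the scale of hours, as planned, no member was called at an FDR of 0.05 in any of 11 classes, and the share of all genes called was 0% in IFE.B, IFE.SB, uHF.B, OB1 and OB2, 0.0101% in uHF.SB, 0.0173% in OB3, 0.0514% in T cells, 0.0492% in Langerhans cells, 4.56% in melanocytes and 1.99% in the Col14a1 cluster. In OB1 2 of 18 members had an unadjusted p under 0.05, and in uHF.B and IFE.B none of 20 and 22, and DESeq2 also called none in these classes. On the scale of log2(hours + 1), which spreads the early times, 11 of 18 members were called in OB1, where 17.1% of 10509 genes were. They included Itga2 (edgeR adjusted p = 0.000544), Itgb1 (0.00176), Lama3 (0.00765), Itgb4 (0.0114), Itgb8 (0.0154), Lamb1 (0.0257), Itga1 (0.0337), Itgb5 (0.0384), Lamb3 (0.0418) and Itga3 (0.043). The log2 scale also called 2 of 20 members in uHF.B (5.28% of all genes), 5 of 15 in uHF.SB (8.71%), 4 of 11 in OB2 (6.32%), 3 of 13 in OB3 (8.22%) and 4 of 17 in the Col14a1 cluster (8.4%). It called none of 22 in IFE.B, where it called 0% of genes, none of 21 in IFE.SB (0.0322%), and none in T cells (0%), Langerhans cells (0.0984%) or melanocytes (14.5%). With 1 library at each time, a call rests on the fit of a smooth curve. In OB1 the count depended on the scale of time and also on the 0 h library, without which 9 of 18 members were called on the scale of hours (16.6% of all genes).

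The classes were then compared over the 6 libraries. Between the basal layers of the upper HF and of the interfollicular epidermis, 14 of 22 members tested were called (edgeR, FDR 0.05 and at least 2-fold, library as block), 4 higher and 10 lower in uHF.B, where 18.4% of 12527 genes were called, 9.63% higher and 8.79% lower. Itgb8 showed the largest contrast, a log2 fold change of 6.76 ± 0.21 (adjusted p = 1.05e-08). It was at 36.3, 18.9, 36.1, 54.5, 52.2 and 49.6 CPM in uHF.B against 0.110, 0.0644, 0.344, 0.527, 0.536 and 0.459 CPM in IFE.B, so the 2 classes did not overlap. Lama3 (-1.62 ± 0.26), Lamb3 (-1.32 ± 0.14), Itga6 (-1.19 ± 0.11) and Itgb4 (-1.18 ± 0.14) were lower in uHF.B on the log2 scale. In all contrasts the value after ± is an approximate SE. It is the absolute log2 fold change divided by the square root of the F statistic of the test. In the 4 h library alone, Lama3 was not lower there, at 86.3 CPM in uHF.B against 78.9 CPM in IFE.B. The other genes called higher, Lama4, Itgb2 and Lama2, had at most 9.95 CPM in the uHF.B sum.

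In OB1 against IFE.B, 8 of 23 members were called, 5 higher and 3 lower, where 24% of 12943 genes were, 13.9% higher and 10.1% lower. Itgb8 (6.86 ± 0.27), Itgb5 (2.46 ± 0.26) and Itgb6 (2.21 ± 0.21) were higher in OB1, and Itga3 (-1.14 ± 0.12) was lower. Itga1 was also higher (5.63 ± 0.41), at 13.4 CPM (95% interval 11.6 to 15.2) in the OB1 sum. The log2 fold changes of Itgb1 (-0.26 ± 0.16) and of the laminin genes Lama3 (0.14 ± 0.27) and Lamb3 (-0.29 ± 0.20) did not pass the test. The remaining calls, Itga4 higher and Itga7 and Lama1 lower, were of genes under 5 CPM in the sum over libraries of both classes.

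In the suprabasal epidermis, 17 of 23 members were called against IFE.B, 15 of them lower, where 27.7% of 13436 genes were called, 13.2% higher and 14.6% lower. The median log2 fold change of the members was -1.628, and that of all genes -0.047. Itga3 (-3.08 ± 0.21), Itgb1 (-2.53 ± 0.17), Itgb4 (-2.36 ± 0.15), Lamb3 (-2.62 ± 0.22) and Lama5 (-2.50 ± 0.22) were among those lower, and Itga6 by less (-1.52 ± 0.10). Itgb5 was higher (3.51 ± 0.22, adjusted p = 3.07e-06), as was Itgam, at 1.59 CPM. In uHF.SB against uHF.B, 13 of 18 were called, 12 lower and Itgb5 higher (1.49 ± 0.15), where 23.5% of 11310 genes were called, 10.8% higher and 12.8% lower. In both epithelia the suprabasal cells thus had more Itgb5 and less Itgb1, Itgb4 and Itga3 RNA than the basal ones.

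Within the bulge, 8 of 17 members were lower in OB2 than in OB1 and none higher, where 9.72% of 9365 genes were called, 3.63% higher and 6.09% lower. Itga3 (-3.93 ± 0.23), Itgb6 (-3.81 ± 0.22), Itga2 (-3.71 ± 0.26) and Itgb1 (-1.59 ± 0.11) were among them. Itgb6 in OB2 was 2.44, 26.0, 6.02, 12.3, 4.61 and 3.74 CPM, and each library was below OB1 of the same time. In OB3, 5 of 19 were called, where 7.38% of 9418 genes were, 3.2% higher and 4.18% lower. They were Itga2 (-1.45 ± 0.18), Itga1 (-2.22 ± 0.41) and Lamb1 (-2.61 ± 0.50) lower and Lama4 (2.77 ± 0.51) and Itga4 (2.48 ± 0.63) higher. Apart from Itga2, these calls rest on few UMIs in OB3. Lama4 had at most 11 in a library, and Itga1, Lamb1 and Itga4 at most 5. Without the library as block, 4 members were called in OB2, and none in OB3.

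In IB against OB1, over 4 libraries, 5 of 16 members were called, all lower (Lamb3, Lama3, Lama5, Itgb4 and Itga1), where 11.6% of 9216 genes were, 5.94% higher and 5.69% lower. Without the 0 h library, which held 21 IB cells, 2 were called, without 16 h 3, and without the library as block none. Over time, Itgb1 in IB was at 36.9, 1252, 261 and 15.6 CPM at 0 h, 4 h, 16 h and 6 d, and Itga2 was at 6.14, 205, 69.7 and 1.56 CPM. Both were highest at 4 h. At 0 h and 6 d Itgb1 had 6 and 10 UMIs, and Itga2 had 1 UMI in each. The intervals of these libraries overlapped for both genes, so their order was not resolved.

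In IRS2 against OB1, over 2 d, 4 d and 6 d, 14 of 17 members were called, all lower, where 29.6% of 10667 genes were, 12.4% higher and 17.2% lower. Itgb6 (-4.25 ± 0.38), Itgb8 (-3.94 ± 0.29) and Itga6 (-3.09 ± 0.23) were among them, while Lamb1 (0.63 ± 0.23), Lamc1 (0.01 ± 0.31) and Lama5 (-0.45 ± 0.24) did not pass the test. In the Col14a1 cluster against OB1, a contrast chosen after the data were seen, 6 of 18 members were called, where 12.4% of 10769 genes were, 5.96% higher and 6.42% lower. Lamb1 was higher (2.07 ± 0.32, adjusted p = 0.000742). Lamb3 (-1.48 ± 0.16), Lama3 (-1.20 ± 0.17), Itgb6, Itgb8 and Itga5 were lower. In IRS3, Itgb5 was at 92.0, 90.8 and 51.1 CPM and Itgb8 at 98.7, 59.2 and 83.9 CPM at 2 d, 4 d and 6 d.

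A list of 63 other adhesion genes, chosen with earlier results of these data known, was followed beside the members. In OB1 at 4 h, 41 of them reached 20 CPM at either time, with a median log2 ratio of -0.063. Of these, 7 were at least 2-fold higher and 11 lower, where 21.5% and 17.2% of all genes were. Of the 11 measured ligands and basement membrane genes in it, 1 was higher and 7 were lower (median -1.118), and of 21 integrin activators and adaptors 6 were higher and 2 lower (median 0.548). In IFE.B the same groups gave 0 higher and 6 lower of 10, and 5 higher and 0 lower of 17 (21.9% and 15.4% of all genes). In uHF.B they gave 0 higher and 4 lower of 8, and 5 higher and 1 lower of 20 (20.6% and 17.2% of all genes). In the class contrasts, 37 of the 55 adhesion genes tested were lower in IFE.SB than in IFE.B and 1 higher (14.6% and 13.2% of all genes). In uHF.SB against uHF.B 21 of 51 were lower and 1 higher (12.8% and 10.8% of all genes). In OB1 against IFE.B, 15 of 54 were higher and 4 lower (13.9% and 10.1% of all genes).

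By the rule for naming them, the 8 adhesion genes that differed most in OB1 at 4 h or 16 h were Npnt, Egfl6, Flna, Col7a1, Bcam, Dst, Tns1 and Cdh1. Npnt and Egfl6, which encode matrix ligands of integrins, were at 168, 28.0, 23.97, 88.8, 246 and 423 CPM and 114, 27.6, 19.6, 67.1, 43.7 and 47.1 CPM. Col7a1, the collagen of anchoring fibrils, was at 99.2, 26.6, 53.6, 84.3, 90.8 and 116 CPM, Bcam, a laminin receptor, at 278, 79.3, 153, 176, 264 and 272 CPM and Dst, which links hemidesmosomes to keratins, at 1294, 482, 734, 1249, 923 and 738 CPM. All 5 were lower at 4 h than at 0 h, while Itga6 and Itgb4 were higher. These 5 were named for the size of their change and do not stand for their groups. Of the 4 hemidesmosome genes listed, 0 were higher and 1 lower in OB1 at 4 h (median log2 ratio 0.255). In IFE.B and in uHF.B 2 of these 4 were higher and 0 lower. Of 5 other laminin receptors, 0 were higher and 1 lower in OB1. Tns1, an adaptor between integrins and actin, was at 201, 75.9, 92.7, 66.2, 61.9 and 80.2 CPM. Flna, which binds actin and integrin tails, was at 59.1, 155, 270, 49.8, 111 and 84.3 CPM, highest at 16 h, and Cdh1, which encodes E-cadherin, at 129, 329, 199.7, 180.3, 134 and 158 CPM, highest at 4 h.

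Of the leukocyte integrins, Itgae, Itgal, Itgam, Itgax and Itgb7 did not reach 5 CPM in any library of a keratinocyte class. In T cells, Itgae (ENSMUSG00000005947, chromosome 11 from 73090583 to 73147446) was at 486, 354, 727, 553, 489.8 and 351 CPM and its partner Itgb7 (ENSMUSG00000001281, chromosome 15 from 102215995 to 102231944) at 417, 387, 452, 255, 395 and 241 CPM. The 16 h library was the highest for both. Itgal (ENSMUSG00000030830, chromosome 7 from 127296260 to 127335138), the alpha subunit of the lymphocyte receptor for ICAM molecules, was at 110.4, 99.97, 139, 104, 90.2 and 86.8 CPM. Itgav was at 154, 138, 83.7, 174, 45.4 and 155 CPM, with 4 d the lowest library. In Langerhans cells, Itgam (ENSMUSG00000030786, chromosome 7 from 128062640 to 128118491) was at 50.05, 79.5, 83.8, 63.4, 51.1 and 34.7 CPM and Itgax (ENSMUSG00000030789, chromosome 7 from 128129547 to 128150657) at 31.9, 29.8, 80.3, 56.6, 53.5 and 50.1 CPM, both subunits of complement receptors, and Itgb7 at 63.7, 11.3, 42.8, 19.2, 51.1 and 13.5 CPM.

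T cells also held Lamb3 RNA, at 158, 134, 94.1, 102, 64.7 and 60.4 CPM. Over all libraries T cells had 94.4 CPM (95% interval 87.1 to 102) of Lamb3, and only 3.98 CPM (95% interval 2.60 to 5.84) of Lama3. In the IFE.B sum the same genes were at 182 CPM (95% interval 179.9 to 184) and 87.1 CPM (95% interval 85.6 to 88.6), so the 2 genes did not keep the ratio they had in keratinocytes. Langerhans cells had 3.47 CPM (95% interval 1.79 to 6.06) of Lamb3. Another annotated gene overlaps Lamb3 on the same strand, and its part in these counts was not tested. That gene ends at 193226208, and Lamb3 has its 3′ end at 193343878. With cells thinned to 2000 UMIs, 25.7% (95% interval 19.5 to 32.8) of T cells had a Lamb3 UMI at 0 h and 10.6% (95% interval 6.89 to 15.3) at 6 d, and 0.559% (95% interval 0.0141 to 3.07) had a Lama3 UMI at 0 h. Taken apart after the data were seen, the T cell cluster led by Trdc and Cd3 genes (2420 cells) had 104 CPM (95% interval 96.2 to 113) and the cluster led by Il7r and Icos (296 cells) 26.2 CPM (95% interval 16.4 to 39.7). Itgae was at 503 CPM (95% interval 484 to 521) and 424 CPM (95% interval 381 to 469.9) in them, and Itgb2 at 28.5 CPM (95% interval 24.3 to 33.2) and 79.9 CPM (95% interval 61.9 to 102).

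Stromal laminins were highest in DP and fibroblast cells, of which there were 208 in all and 20 or more only at 4 d (126) and 6 d (24). Lamc3 (ENSMUSG00000026840, chromosome 2 from 31887291 to 31946539) was at 489.5 CPM (95% interval 427 to 559) at 4 d and 536 CPM (95% interval 411 to 687) at 6 d, and Lama2 (ENSMUSG00000019899, chromosome 10 from 26980036 to 27619758) at 367 CPM (95% interval 313 to 427) and 467 CPM (95% interval 351 to 609). Lamb1 was at 344 CPM (95% interval 292 to 403) and 233 CPM (95% interval 154 to 339.5). In each of these the 2 intervals overlapped. In the same class Lamb2 (ENSMUSG00000052911, chromosome 9 from 108479736 to 108490530) was at 55.5 CPM (95% interval 39.8 to 75.3) over all libraries and Lamc1 at 59.5 CPM (95% interval 43.3 to 79.9). In IFE.B the Lama2 sum was 0.986 CPM (95% interval 0.834 to 1.16), and that of Lamc3 0.0132 CPM (95% interval 0.00160 to 0.0478). In melanocytes Itgb1 was at 144, 306, 306, 180.5, 187 and 246 CPM, on 11 UMIs at 0 h. In SG cells Lama4 was at 42.9, 48.3, 41.5, 45.1 and 58.0 CPM in the 5 libraries from 4 h on.

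The other 13 members stayed below 50 CPM in the sum of every class. Their highest class sums ran from 0.49 CPM (Itga10) to 47.4 CPM (Itga9, in DP and fibroblast cells). Itga10, Itga11, Itgad, Itga8, Lama1, Itgb3 and Itga7 never passed 7.37 CPM in a class sum, on at most a few UMIs in the smaller classes. Itga5, the alpha subunit of the fibronectin receptor, was at 35.2 CPM (95% interval 23.0 to 51.5) in DP and fibroblast cells. Itga4 was highest in Langerhans cells, at 18.5 CPM (95% interval 14.3 to 23.6), as was Itgb2, at 44.0 CPM (95% interval 37.3 to 51.5). Lama4 was highest in SG cells, at 46.9 CPM (95% interval 44.1 to 49.7), and Itga1 in the Col14a1 cluster, at 45.1 CPM (95% interval 42.1 to 48.3).

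Markers of other cell types were also summed in OB1. The 9 DP and fibroblast markers summed to between 30.9 and 59.8 CPM and the 10 T cell markers to between 11.99 and 30.5 CPM, and in T cells the latter summed to between 16210 and 26290 CPM. The 8 Langerhans markers summed to 12.7, 63.3, 23.7, 105, 36.5 and 38.6 CPM, and the 9 melanocyte markers to 160, 14.5, 40.7, 44.4, 29.5 and 31.7 CPM. The 4 h library was thus above 0 h for the Langerhans list and below it for the melanocyte list. Over the libraries, 7 of the 9 DP and fibroblast markers had a UMI in OB1 (Lum and Pdgfra were at 0), as had all 10 T cell markers, 7 of the 8 Langerhans markers (Lyz2 was at 0) and all 9 melanocyte markers. The 9 IFE.SB markers, genes of differentiating cells in which the basal integrins were low, summed at 0 h and 4 h to 601 and 471 CPM in OB1, 568 and 469 CPM in uHF.B, 790.3 and 377 CPM in IFE.B, 673 and 284 CPM in OB2, 594 and 130.2 CPM in the Col14a1 cluster and 1346 and 1414 CPM in OB3. The sum was thus lower at 4 h in these classes except OB3. The part of these markers in the levels of the members was not tested.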

How the data were processed

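Single-cell RNA-seq (10x Chromium, 3′ end) was done on skin cells of 6 time points, 1 library each. Per the labels, the authors used Cell Ranger 6.1.2 and mm10, and the deposited matrices hold unnormalized UMI counts of each gene in 61031 barcodes. Barcodes with 500 to 7000 genes and at most 10% mitochondrial UMIs were kept, and those with the highest Scrublet scores (scanpy 1.11.5, 0.8% per 1000 barcodes) were removed as doublets, leaving 50502 cells. Libraries were integrated by reciprocal PCA and clustered in Seurat 5.3.0 without 274 genes, which included the 36 members, 61 of the 63 adhesion list genes and cell cycle genes, and follicle cells were clustered again.

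Counts were summed per class and library. Time courses (natural spline, 3 degrees of freedom) and class contrasts (library as block) were tested on the sums of classes with at least 20 cells in a library, with edgeR 4.0.16 (quasi-likelihood, TMM, filterByExpr, Benjamini-Hochberg adjustment over all genes, R 4.3.3). The tests were also run on simulated counts with known changes, and the outcome is not given here. Contrast calls needed an FDR of 0.05 and a 2-fold change. Single time points were compared with 0 h by CPM ratios of at least 2 where either level reached 20 CPM, without a test. Exact intervals came from SciPy 1.17.1.

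Members with 50 CPM or more in the sum of a class were described in full, the others by range, apart from 1 that is not reported here by name but stands in the counts, and of the adhesion list the 8 genes that differed most from 0 h in OB1 at 4 h or 16 h were named. Members, lists and marker sets were chosen with earlier results of these data known. Alternatives were DESeq2 1.42.0, its size factors, other time scales, no filter, no block, each library left out, doubled clustering resolution and doublets kept. Each time point holds cells of 2 mice in 1 library, so spread between mice was not measured.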

Additional observations from a re-analysis of the deposited data

Results flagged for a closer look

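Among OB1, uHF.B and IFE.B, in 2 genes with at least 20 CPM at either time the 4 h level moved against that of 0 h in opposite directions in different classes, each with an interval that left out 1, in single libraries, so the difference between the classes was not tested. Itgav had a log2 fold of 0.558 in uHF.B and of -0.502 in IFE.B. Lama3 had a log2 fold of 1.535 in OB1 and 1.321 in uHF.B, and of -0.22 in IFE.B.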

How the results depend on the processing

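Of 989 values by gene over all alternatives, 944 kept their direction and side of the threshold, 45 were no longer past it and 0 reversed, and 391 of 434 counts stayed within 1.5 times. The time course counts, 0 on the scale of hours, moved most. On log2(hours + 1) they were 11 in OB1, 5 in uHF.SB, 4 in OB2 and in the Col14a1 cluster, 3 in OB3 and 2 in uHF.B. On the rank of the time point they were 1 in OB1 and uHF.SB and 2 in the Col14a1 cluster, which also had 4 without a filter and 1 at doubled resolution. Leaving out 1 library gave 0 to 9 in OB1 (9 without 0 h, 1 without 4 h), 0 to 4 in the Col14a1 cluster (4 without 0 h, 2 without 4 h, 1 without 16 h), 0 to 2 in IFE.SB (2 without 4 h), in uHF.SB and in OB2 (2 without 0 h), and 0 to 1 in uHF.B (without 0 h) and T cells (without 0 h, 2 d or 6 d).

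In the contrasts, counts without the library block were 4 lower in OB2, 0 higher and 0 lower in OB3, 0 lower in IB and 2 lower in the Col14a1 cluster. Without a filter 5 were lower in OB1 against IFE.B and 2 higher in uHF.SB. Leaving out 1 library gave 1 to 2 higher in OB3 (1 without 0 h or 6 d), 2 to 7 lower in IB (2 without 0 h, 3 without 16 h), and 1 to 2 higher and 3 to 5 lower in the Col14a1 cluster (2 and 3 without 2 d, as at doubled resolution). With TMM scaling, members lower in uHF.B were 3 at 4 h and 1 at 6 d, and those higher were 1 in uHF.SB at 4 h and 2 in OB1 at 4 d. With doublets kept, 0 were lower in uHF.B at 2 d. Apart from the fewer samples, the cause was not tested. No paired analysis was possible because each time point has 1 library, so replicate numbers pair nothing (the library block of the contrasts joins classes, not replicates). Classes of few cells (IB, OB3, DP and fibroblast) limit what low members could show.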
